A study of Homo sapiens with 12 samples.

Results

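SNAI1, SNAI2, SNAI3, TWIST1, TWIST2, ZEB1 and ZEB2 are transcription factors best known as drivers of epithelial-to-mesenchymal transition (EMT), and their RNA was followed here through silencing of the pluripotency factor SOX2. All probe sets annotated to these 7 genes were taken, which gave 8 of the 19158 probe sets with a single gene on the array, since ZEB2 had 2 and every other gene had 1. None of the 8 was shared with another gene. RNA came from 2 human embryonal carcinoma cell (hECC) lines, 2102Ep, called nullipotent since retinoic acid fails to differentiate it, and NTera-2, which is pluripotent. Both are established tumour lines.

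The 4 groups were 2102Ep cells transfected with an siRNA against SOX2 (siSOX2), 2102Ep cells given the non-targeting siRNA Ambion Silencer Select Negative Control #1 (control), and the same siSOX2 and control pair in NTera-2 cells. Each group had 3 arrays, which the labels call biological replicates, so 12 arrays in all. Cells were seeded 24 hours before transfection, transfected for 6 hours and grown for a further 72 hours in serum-containing medium. Every group, controls included, thus went through lipid transfection, with Lipofectamine 2000 for 2102Ep and Lipofectamine RNAiMAX for NTera-2, and the siRNA amount also differed between the lines. Line, reagent and siRNA amount therefore cannot be told apart. Signals are log2 values from a whole-transcript array, so a step of 1 is a 2-fold change and a signal is compared only with the same probe set on other arrays.

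The 3 SNAI factors are zinc finger repressors that bind E-box elements with the core CACCTG and shut genes such as CDH1, the gene of E-cadherin. ZEB1 and ZEB2 carry clusters of zinc fingers at each end and recognise a similar element, CACCT, while TWIST1 and TWIST2 are basic helix-loop-helix (bHLH) proteins that pair with E proteins. In the embryo SNAI1 and SNAI2 act where cells leave an epithelium, at the primitive streak and in the neural crest. The ZEB factors and the microRNAs of the miR-200 family repress each other, the microRNAs by binding ZEB messenger RNA and the ZEB proteins by binding the promoters of the microRNA genes.

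The miR-200 family is shown by sequence because 2 of its 5 precursors, MIR200C and MIR141, differed between the lines, as ZEB1 and ZEB2 did. Line differences were common, with 7941 of all 19158 probe sets past a limma adjusted p of 0.05 between control cells. Mature sequences are RefSeq entries on GRCh38.p14, read 5′ to 3′ with the seed (bases 2 to 8) in capitals. Of these 5 microRNAs, 3 shared the seed AAUACUG and 2 the seed AACACUG. Those of MIR200C (chr12:6963742-6963764, plus strand) and MIR141 (chr12:6964155-6964176, plus strand) start 413 bases apart, and the other 3 genes, MIR200B, MIR200A and MIR429, lie together on the plus strand of chromosome 1.
hsa-miR-200c-3p: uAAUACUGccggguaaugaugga
hsa-miR-200b-3p: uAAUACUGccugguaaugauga
hsa-miR-429: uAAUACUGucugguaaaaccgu
hsa-miR-141-3p: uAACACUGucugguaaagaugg
hsa-miR-200a-3p: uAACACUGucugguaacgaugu

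Promoters are shown for ZEB1 and ZEB2, whose main probe sets moved together across the lines. RefSeq (GRCh38.p14) gave windows of 250 bases before to 50 after a start for 3 of the 7 genes, with 7 windows for ZEB1 and 1 each for ZEB2 and TWIST2. The letters CACCT, the element the ZEB and SNAI proteins recognise, were searched on both strands (AGGTG on the strand shown) and are in capitals. The same letters were found in 51.6% of 35116 promoter windows of this length, so a match by itself is common. For ZEB1, the window at the first start (chr10:31318167-31318466, plus strand) held 3 matches and the window that held the most (chr10:31318966-31319265, plus strand) held 6. The other 5 ZEB1 windows held 0, and 0.387% of all windows held 5 or more. That share counts single windows, while the ZEB1 window was picked as the highest of 7. It therefore does not measure how rare such a window is for a gene with several. For ZEB2 the window (chr2:144520070-144520369, minus strand) held 1 match, and the TWIST2 window 0.
ZEB1, first start: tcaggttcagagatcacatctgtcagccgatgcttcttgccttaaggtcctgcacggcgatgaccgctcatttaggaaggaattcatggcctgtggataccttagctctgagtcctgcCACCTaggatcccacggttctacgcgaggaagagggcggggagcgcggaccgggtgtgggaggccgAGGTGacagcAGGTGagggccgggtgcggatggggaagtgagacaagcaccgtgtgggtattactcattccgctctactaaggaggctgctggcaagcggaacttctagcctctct
ZEB1, window with the most matches: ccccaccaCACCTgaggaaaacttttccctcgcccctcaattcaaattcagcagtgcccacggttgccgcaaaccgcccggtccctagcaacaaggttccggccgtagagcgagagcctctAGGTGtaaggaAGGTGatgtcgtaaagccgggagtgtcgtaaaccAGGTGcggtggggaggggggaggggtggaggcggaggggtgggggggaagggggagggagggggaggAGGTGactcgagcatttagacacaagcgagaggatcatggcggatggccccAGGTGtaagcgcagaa
ZEB2: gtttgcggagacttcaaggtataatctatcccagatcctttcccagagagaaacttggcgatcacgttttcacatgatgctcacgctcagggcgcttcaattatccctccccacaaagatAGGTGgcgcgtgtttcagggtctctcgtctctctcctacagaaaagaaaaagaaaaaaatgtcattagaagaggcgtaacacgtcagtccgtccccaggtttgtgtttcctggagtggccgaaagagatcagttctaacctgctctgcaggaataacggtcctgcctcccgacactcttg

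The longer form CACCTG, which contains CACCT and was searched on both strands, had 1 match in the first ZEB1 window shown and 3 in the next, against 20.6% of all windows with at least 1. The core bound by SOX proteins, CATTGT and its reverse complement, was in 0 of the 9 ZEB1, ZEB2 and TWIST2 windows, and in 10.8% of all windows. These letters in a window are a description and were not tested for binding. Only this form of the SOX core was searched, in windows of 300 bases. From published SOX2 binding data of human embryonic stem cells, the study lists ZEB2 among genes with SOX2 sites in the promoter region.

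SOX2 RNA fell in both lines, but to different depths. Its signals were 9.17, 9.30 and 8.80 in siSOX2 2102Ep cells, against 12.28, 12.21 and 12.20 in control 2102Ep cells. They were 11.92, 11.95 and 11.86 in siSOX2 NTera-2 cells, against 12.51, 12.52 and 12.63 in control NTera-2 cells. This left 11.4% (95% interval 9.61 to 13.5) of the control signal in 2102Ep cells and 64% (53.8 to 75.9) in NTera-2 cells. These are array values of RNA, and the study's quantitative PCR of SOX2 RNA reported a smaller share left in each line. Its Western blot detected no SOX2 protein in siSOX2 cells of either line. Array medians lay between 7.43 and 7.58, and arrays of 1 group correlated at 0.982 to 0.994. Of 17 embryonal carcinoma markers 15 were measured, and 13 to 15 of them lay above the median probe set in each group, with 4 called lower with siSOX2 in 2102Ep cells and 2 in NTera-2 cells. Of 10 fibroblast markers 3 to 4, and of 8 leukocyte markers 1, lay above the median probe set. The summed linear signal of the fibroblast markers was 3069 to 3556 in siSOX2 2102Ep and 3178 to 3680 in control 2102Ep arrays, and 2789 to 3044 in siSOX2 NTera-2 and 3749 to 4094 in control NTera-2 arrays. That of the leukocyte markers was 795 to 891 in siSOX2 2102Ep and 695 to 795 in control 2102Ep arrays, and 586 to 737 in siSOX2 NTera-2 and 676 to 760 in control NTera-2 arrays. In RNA from whole cultures, more cells with a transcript and more of it per cell cannot be told apart.

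In 2102Ep cells SOX2 silencing was accompanied by higher RNA of SNAI2, SNAI1 and ZEB2, while SNAI3 and TWIST2 stayed within 0.10 of their controls. Of the 8 probe sets, 3 were called higher and 0 lower, where a call needs an adjusted p of at most 0.05, an unadjusted p of at most 0.01 and at least a 2-fold change. Among all 19158 probe sets 1.15% were called higher and 0.82% lower in this comparison. The arrays of siSOX2 and control cells did not overlap for 5 of the 8, against 24.9% of all probe sets.

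SNAI2 (Slug), a factor of the neural crest, changed most of the 8. Its signals were 9.87, 9.80 and 10.11 in siSOX2 2102Ep cells, against 6.43, 6.78 and 6.92 in control 2102Ep cells. Every siSOX2 array lay far above every control array. The difference was 3.22 ± 0.168 on the log2 scale (SE, n = 3 each; limma adjusted p = 1.36e-09), 9.3-fold with a 95% interval of 7.27 to 11.9. SNAI1 (Snail), which acts at the streak and is required for mouse gastrulation, had signals of 10.61, 10.28 and 10.41 in siSOX2 2102Ep cells, against 8.86, 8.88 and 8.84 in control 2102Ep cells. The control arrays were nearly level and all siSOX2 arrays lay above them. It was 2.97-fold higher (1.57 ± 0.136; limma adjusted p = 6.09e-07). SNAI3, the least studied of the 3, read 9.06, 8.84 and 9.29 in siSOX2 2102Ep cells and 9.02, 9.10 and 9.22 in control 2102Ep cells. These arrays overlapped, and the 95% interval of the log2 difference ran from -0.32 to 0.21.

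ZEB2 (SIP1), a partner of SMAD proteins, was measured by 2 probe sets that did not give the same answer. Probe set 8055624, annotated to the RefSeq messenger RNAs of ZEB2, read 7.45, 7.23 and 7.29 in siSOX2 2102Ep cells, against 6.26, 6.12 and 6.18 in control 2102Ep cells. It was 2.2-fold higher with siSOX2 (1.14 ± 0.106; limma adjusted p = 1.28e-06), with no overlap of arrays. Probe set 8055639 is annotated to a single cDNA and read 4.95, 5.01 and 5.24 in siSOX2 2102Ep cells and 5.09, 5.03 and 4.93 in control 2102Ep cells. Its arrays overlapped and the difference was 0.05 ± 0.135 (limma adjusted p = 0.897). Both ZEB2 probe sets and that of ZEB1 averaged below the median probe set of 8.01.

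ZEB1, the other ZEB repressor, read 6.79, 6.79 and 6.85 in siSOX2 2102Ep cells, against 6.25, 6.48 and 6.44 in control 2102Ep cells. The arrays did not overlap, but the difference of 0.42 ± 0.157 missed the adjusted threshold (limma adjusted p = 0.105). It passed in 1 of 20 other settings, when only the 2102Ep arrays were fitted (adjusted p = 0.0389). In the rest the adjusted p reached up to 0.256. TWIST1, a bHLH factor of mesoderm and neural crest, read 9.15, 9.18 and 9.22 in siSOX2 2102Ep cells, against 8.56, 8.64 and 8.63 in control 2102Ep cells. It was 1.48-fold higher (0.57 ± 0.108; limma adjusted p = 0.00161), past the adjusted threshold but short of 2-fold. TWIST2, its close relative in mesenchyme, read 8.07, 8.31 and 8.42 in siSOX2 2102Ep cells and 8.11, 8.48 and 8.49 in control 2102Ep cells, with a 95% interval of -0.37 to 0.17 for the difference.

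**Figure D1:**
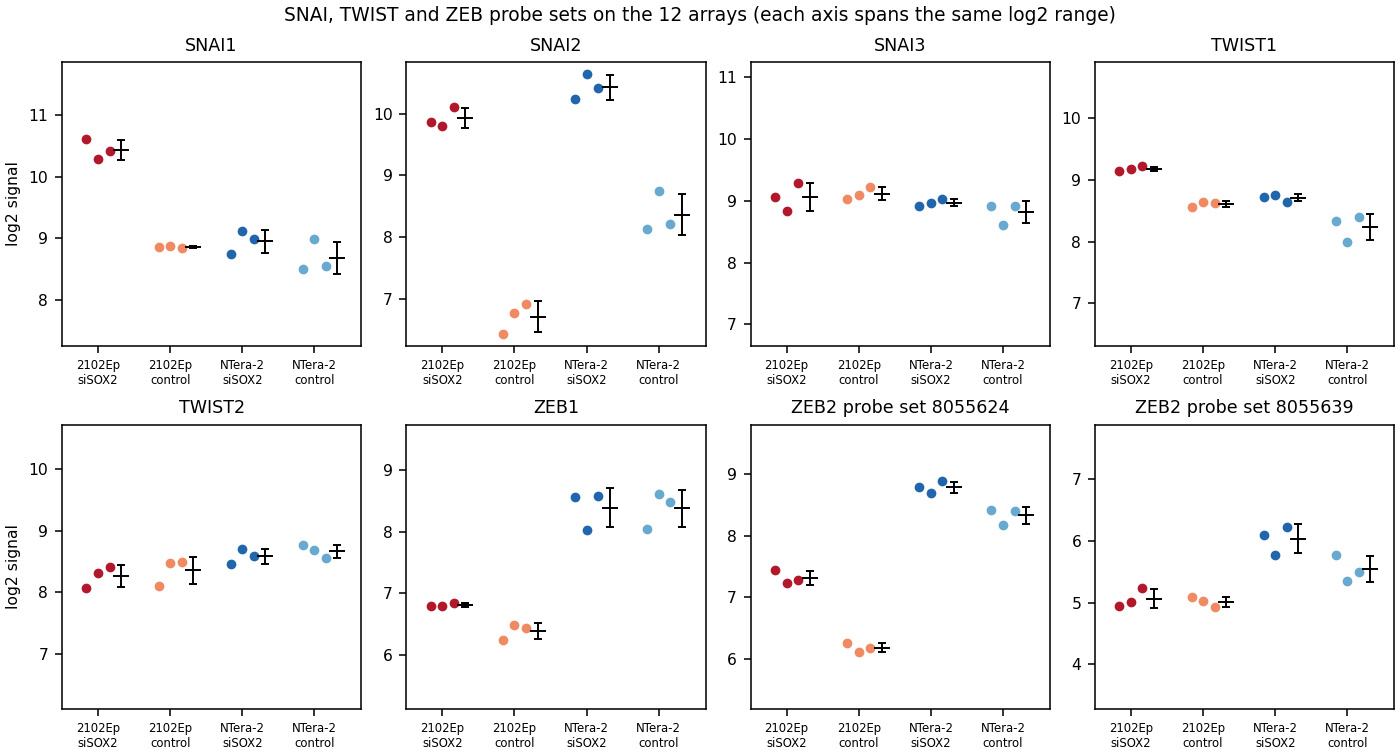
Log2 signal of the 8 probe sets of SNAI1, SNAI2, SNAI3, TWIST1, TWIST2, ZEB1 and ZEB2 (vertical axes, all of the same span) on the 12 arrays in 4 groups; points are arrays, and the bar beside them is the group mean with its SD (n = 3). SNAI1 stands high only in siSOX2 2102Ep cells (10.28 to 10.61), SNAI2 stands high in both siSOX2 groups, and ZEB1 and ZEB2 probe set 8055624 separate the lines.

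In NTera-2 cells, SNAI2 was the single factor called, and SNAI1 did not pass. Of the 8 probe sets 1 was called higher and 0 lower, against 0.298% of all probe sets called higher and 0.35% lower. The arrays of siSOX2 and control cells did not overlap for 4 of the 8, against 21.1% of all probe sets.

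SNAI2 read 10.23, 10.64 and 10.41 in siSOX2 NTera-2 cells, against 8.13, 8.75 and 8.21 in control NTera-2 cells. Each siSOX2 array lay above each control array, and the difference was 2.07 ± 0.168 (limma adjusted p = 1.22e-06), 4.19-fold with a 95% interval of 3.27 to 5.36. SNAI1 read 8.75, 9.11 and 8.99 in siSOX2 NTera-2 cells, against 8.50, 8.99 and 8.55 in control NTera-2 cells. Its arrays overlapped, and the interval of the log2 difference, -0.02 to 0.56, leaves room for a rise of up to that size (limma adjusted p = 0.397). SNAI3, at 8.92 to 9.03 in siSOX2 and 8.61 to 8.92 in control NTera-2 cells, gave a difference of 0.16 ± 0.124 (limma adjusted p = 0.66).

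Smaller differences past the adjusted threshold came from TWIST1 and both ZEB2 probe sets. TWIST1 read 8.72, 8.77 and 8.65 in siSOX2 NTera-2 cells, against 8.33, 8.002 and 8.40 in control NTera-2 cells, a difference of 0.47 ± 0.108 (limma adjusted p = 0.0168). ZEB2 probe set 8055624 read 8.78, 8.70 and 8.88 in siSOX2 NTera-2 cells, against 8.42, 8.17 and 8.40 in control NTera-2 cells, a difference of 0.46 ± 0.106 (limma adjusted p = 0.0177). ZEB2 probe set 8055639 read 6.10, 5.78 and 6.23 in siSOX2 NTera-2 cells, against 5.78, 5.35 and 5.50 in control NTera-2 cells, and sat at the threshold (0.50 ± 0.135; limma adjusted p = 0.0466).

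Each of these 3 missed the adjusted threshold when certain single arrays were left out. Without the second NTera-2 control array the limma adjusted p was 0.0979 for TWIST1, 0.102 for probe set 8055624 and 0.199 for probe set 8055639. TWIST1 also missed it without the first (0.0647) or second (0.0592) siSOX2 array of NTera-2 cells, and probe set 8055624 without replicate 1 (0.062) or 3 (0.085) of the same group. Probe set 8055639 stayed under 0.05 in 6 of 19 other settings, with an adjusted p of up to 0.233 without siSOX2 replicate 3. ZEB1 read 8.57, 8.02 and 8.58 in siSOX2 NTera-2 cells and 8.04, 8.62 and 8.48 in control NTera-2 cells, a spread that left the difference at 0.01 ± 0.157 with a sign that turned with the scaling. TWIST2, at 8.46 to 8.70 in siSOX2 and 8.56 to 8.77 in control NTera-2 cells, overlapped as well.

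**Figure D2:**
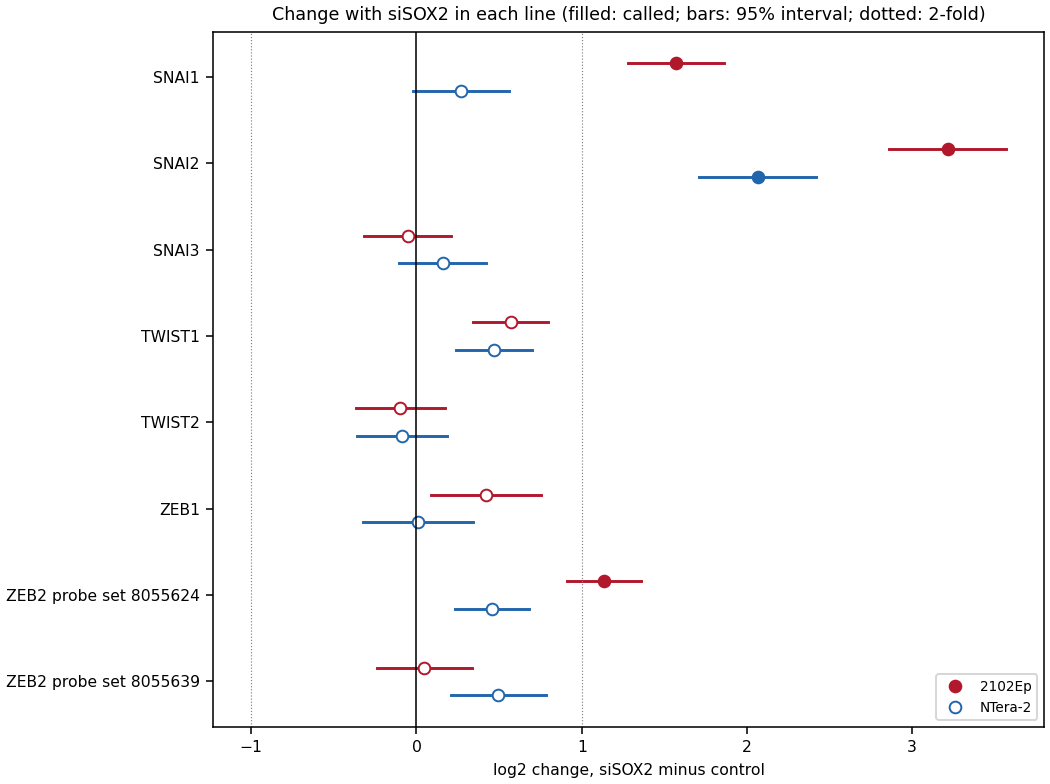
Log2 change (horizontal axis, siSOX2 minus control) of each probe set in 2102Ep cells (upper point of each pair) and NTera-2 cells (lower point), with 95% intervals from limma; filled points are called and dotted lines mark a 2-fold change. SNAI2 is filled in both lines (3.22 and 2.07), SNAI1 and ZEB2 probe set 8055624 in 2102Ep cells, and SNAI3 and TWIST2 cross 0 in both.

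The response itself was compared between the lines as the 2102Ep change minus the NTera-2 change. Among the 8 probe sets 2 were called, SNAI1 and SNAI2, both higher in 2102Ep, against 0.96% of all probe sets called higher and 0.668% lower. SNAI1 rose by 1.30 ± 0.193 log2 units more in 2102Ep cells (limma adjusted p = 0.000518), and no array left out ended that call. SNAI2 rose by 1.15 ± 0.237 more (limma adjusted p = 0.00809), which dropped to 0.96 and below the 2-fold bound without the second control array of NTera-2 cells (adjusted p = 0.0161). ZEB2 probe set 8055624 rose by 0.68 ± 0.149 more (limma adjusted p = 0.012), short of 2-fold. For TWIST1 the difference of responses was 0.10 with a 95% interval of -0.22 to 0.42. That of ZEB1 was 0.41, with an interval of -0.06 to 0.88, and that of ZEB2 probe set 8055639 was -0.45, with an interval of -0.85 to -0.04 and an adjusted p of 0.267. SOX2 RNA fell by 2.49 log2 units more in 2102Ep cells. The part of this larger fall of SOX2 RNA, of the lipid or of the siRNA amount in the SNAI and ZEB2 differences cannot be told apart from the line.

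Before any silencing the lines already differed in ZEB1, ZEB2 and SNAI2, all lower in 2102Ep. In control cells 0 of the 8 probe sets were called higher in 2102Ep and 3 lower, while 3.27% of all probe sets were called higher and 4.44% lower. Arrays did not overlap for 7 of the 8, against 49.9% of all, so separation by itself says little here. ZEB2 probe set 8055624 was 4.43-fold lower in control 2102Ep cells (-2.15 ± 0.106; limma adjusted p = 2.65e-10). ZEB1 was 3.98-fold lower (-1.99 ± 0.157; limma adjusted p = 5.58e-08), with 6.25 to 6.48 in control 2102Ep and 8.04 to 8.62 in control NTera-2 arrays. SNAI2 was 3.15-fold lower (-1.66 ± 0.168; limma adjusted p = 8.67e-07). Short of 2-fold, ZEB2 probe set 8055639 was lower in 2102Ep (-0.53; adjusted p = 0.00498) and TWIST1 higher (0.37; adjusted p = 0.0116, and 0.0831 without the second NTera-2 control array). SNAI1, SNAI3 and TWIST2 did not pass, at 0.18, 0.30 and -0.31.

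Among siSOX2 cells the lines still differed in the ZEB factors, and SNAI1 was now set apart. SNAI1 was called higher in siSOX2 2102Ep than in siSOX2 NTera-2 cells (1.48 ± 0.136; limma adjusted p = 3.14e-07), and ZEB1 (-1.58 ± 0.157; adjusted p = 7.29e-07) and ZEB2 probe set 8055624 (-1.47 ± 0.106; adjusted p = 1.92e-08) were called lower. That is 1 of 8 called higher and 2 lower, against 3.04% and 4.64% of all probe sets, with arrays apart for 7 of 8 and for 52.9% of all. SNAI2 stood at -0.51 ± 0.168 (limma adjusted p = 0.0233), and missed the adjusted threshold without replicate 1 (0.0693) or 2 (0.0826) of siSOX2 2102Ep cells, or without replicate 2 (0.0999) or 3 (0.0525) of siSOX2 NTera-2 cells. It also missed under repeated quantile normalization (-0.38, adjusted p = 0.0949) and over all probe sets of the array (adjusted p = 0.0594). ZEB2 probe set 8055639 lay just short of 2-fold at -0.97 (adjusted p = 2.41e-05), and at -1.10 without the second siSOX2 array of NTera-2 cells. TWIST1 was higher by 0.47 (adjusted p = 0.0022). These comparisons use the same arrays as those of siSOX2 against control, so they are not separate evidence.

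The order of the group means differed by factor. For SNAI1 siSOX2 2102Ep came first, and the other 3 groups, at 8.68 to 8.95, did not differ in neighbouring steps. For SNAI2 the order was siSOX2 NTera-2, siSOX2 2102Ep, control NTera-2 and control 2102Ep, with each step past the adjusted threshold in limma. For ZEB2 probe set 8055624 both NTera-2 groups stood above both 2102Ep groups, siSOX2 above control in each line, and every step passed. Probe set 8055639 had the same order, but its step between siSOX2 and control 2102Ep cells (0.05, adjusted p = 0.897) did not pass and that in NTera-2 cells lay at the threshold (adjusted p = 0.0466). For ZEB1 the step between the lines passed and the steps within each line did not. For TWIST1 the order was siSOX2 2102Ep, siSOX2 NTera-2, control 2102Ep and control NTera-2, and its middle step of 0.10 did not pass. No step passed for SNAI3 or TWIST2, whose group means spanned 0.303 and 0.407.

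**Figure D3:**
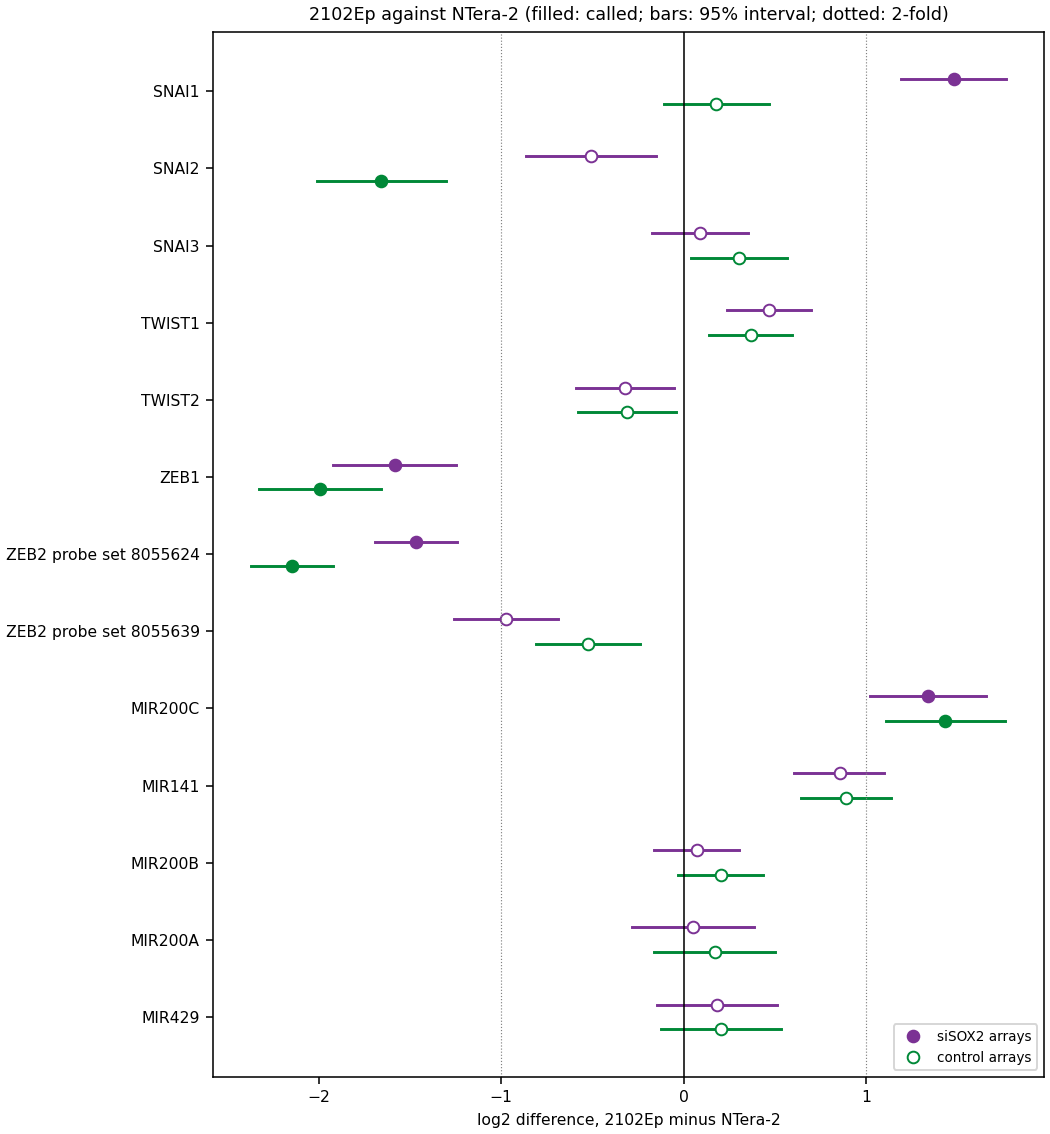
Log2 difference (horizontal axis, 2102Ep minus NTera-2) in siSOX2 arrays (upper point of each pair) and control arrays (lower point) for the 8 probe sets and for 5 precursors of the miR-200 family, with 95% intervals from limma; filled points are called and dotted lines mark a 2-fold difference. ZEB1 and ZEB2 probe set 8055624 lie left of 0 and MIR200C and MIR141 right of 0 with either siRNA, while SNAI1 leaves 0 in siSOX2 arrays only.

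Of the 5 precursors of the miR-200 family, MIR200C and MIR141 differed between the lines. They were singled out after their values were seen. Of all 19158 probe sets, 7941 passed the adjusted threshold between control lines and 7860 between siSOX2 lines. Passing for 2 of 5 is therefore common here. The probe sets carry the names of the microRNA genes and were hybridised with labelled cDNA prepared from the RNA. They do not measure the mature microRNA sequences given above. MIR200C read 7.22, 6.93 and 7.25 in siSOX2 2102Ep and 7.48, 6.98 and 7.41 in control 2102Ep arrays. It read 5.77, 6.07 and 5.54 in siSOX2 NTera-2 and 5.86, 5.75 and 5.96 in control NTera-2 arrays. All 6 arrays of 2102Ep cells lay above all 6 of NTera-2 cells, by 1.34 ± 0.152 with siSOX2 (limma adjusted p = 2.89e-06) and by 1.44 ± 0.152 in controls (adjusted p = 1.42e-06). MIR141, its neighbour on chromosome 12, was higher in 2102Ep by 0.86 with siSOX2 (adjusted p = 1.97e-05) and by 0.89 in controls (adjusted p = 1.28e-05). For MIR200A, MIR200B and MIR429 the line differences were 0.05 to 0.21 and did not pass. Against control, none of the 5 passed the threshold in either line (limma adjusted p of at least 0.334), with differences of -0.19 to 0.02. For mature microRNAs, the study's quantitative PCR reported miR-200b lower with siSOX2 in 2102Ep cells and miR-200c lower in NTera-2 cells. Among others that target these factors, it reported miR-30c, miR-148a, miR-182 and miR-183 lower and miR-9 and miR-30d higher in siSOX2 2102Ep cells. Of 24 measured precursors of microRNAs that target these factors, 0 were called with siSOX2 in either line (medians -0.06 in 2102Ep and 0.01 in NTera-2 cells). The nearest was MIR9-1, at 1.00 ± 0.151 in 2102Ep cells (adjusted p = 0.000216), just under 2-fold. Some of these precursors gave signals far below the median probe set of 8.01, such as MIR30B, with group means of 2.74 to 2.84. The absence of calls therefore says little about the mature forms.

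The cadherins that the SNAI and ZEB factors are known to act on did not switch together. CDH1 (E-cadherin), the classical repressed target, read 12.10, 12.12 and 11.91 in siSOX2 2102Ep cells, against 11.53, 11.09 and 11.37 in control 2102Ep cells. It read 9.23, 9.13 and 9.50 in siSOX2 NTera-2 cells, against 7.48, 8.09 and 7.68 in control NTera-2 cells. CDH1 was thus higher with siSOX2 in both lines, by 0.71 ± 0.155 in 2102Ep (limma adjusted p = 0.00481) and 1.54 ± 0.155 in NTera-2 cells (adjusted p = 1.17e-05), alongside higher SNAI2. Its response was smaller in 2102Ep by 0.83 ± 0.219 (limma adjusted p = 0.0381), a difference that missed 0.05 in 12 of 20 other settings, with an adjusted p of up to 0.133.

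CDH2 (N-cadherin), usually gained in EMT, read 9.68, 9.62 and 9.68 in siSOX2 2102Ep cells, against 8.59, 8.49 and 8.25 in control 2102Ep cells. It read 9.02, 8.99 and 9.15 in siSOX2 NTera-2 cells, against 9.72, 9.89 and 9.81 in control NTera-2 cells. It rose by 1.21 ± 0.106 in 2102Ep (limma adjusted p = 6.17e-07) and stood at -0.76 ± 0.106 in NTera-2 cells (adjusted p = 0.000291), short of 2-fold, and the responses differed by 1.97 ± 0.149 (adjusted p = 4.67e-07). Between the lines, CDH1 was 12-fold higher in control 2102Ep than in control NTera-2 cells and CDH2 2.57-fold lower.

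**Figure D4:**
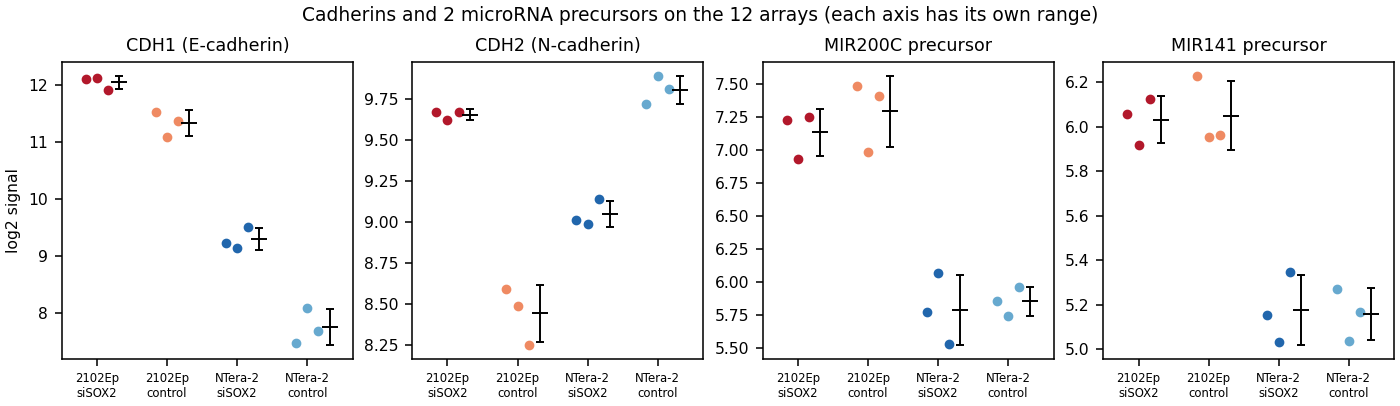
Log2 signal (vertical axes, each with its own range) of CDH1, CDH2 and the precursors MIR200C and MIR141 on the 12 arrays in 4 groups; points are arrays and the bar beside them is the group mean with its SD (n = 3). CDH1 is higher with siSOX2 in both lines, CDH2 moves in opposite directions (1.21 and -0.76), and both precursors separate 2102Ep from NTera-2 arrays.

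Genes around the factors were read from lists written with earlier results of these data known. Each list is therefore given as counts and a median. The median of all probe sets was -0.01 in 2102Ep and 0.04 in NTera-2 cells. Of all 19158 probe sets, 1.15% were called higher and 0.82% lower in 2102Ep cells, and 0.298% and 0.35% in NTera-2 cells. In all, 2309 passed the adjusted threshold in 2102Ep and 900 in NTera-2 cells. Of 36 measured epithelial genes that SNAI or ZEB factors are known to repress, 5 were called higher and 0 lower with siSOX2 in 2102Ep cells, with a median log2 change of 0.23. They were the vesicle GTPase RAB25 (1.84), the keratin KRT19 (1.51), the epithelial factor GRHL2 (1.38), the claudin CLDN4 (1.19) and plakoglobin JUP (1.18). In NTera-2 cells 2 were called higher, CDH1 and GRHL3 (1.87), another Grainyhead-like epithelial factor, and 0 lower, with a median of 0.04. Past the adjusted threshold were 13 of the 36 as higher and 1 as lower in 2102Ep cells, and 5 and 1 in NTera-2 cells. In control cells 16 of the 36 were called higher in 2102Ep than in NTera-2 cells and 0 lower, against 3.27% and 4.44% of all probe sets.

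Of 37 mesenchymal genes that usually rise in EMT, 6 were called higher and 0 lower with siSOX2 in 2102Ep cells (median 0.41), and 17 passed the adjusted threshold as higher and 2 as lower. Cadherin-11 (CDH11) changed by 3.19, fibronectin (FN1) by 2.45, the hyaluronan synthase HAS2 by 2.01, the matrix metalloproteinase MMP2 by 1.96, the integrin ITGA5 by 1.82 and CDH2 by 1.21. In NTera-2 cells 8 passed the adjusted threshold as higher and 4 as lower (median 0.19), but 0 were called higher and 1 lower. The 1 was the matrix protein POSTN (-1.69), with group means of 4.55 in siSOX2 and 6.24 in control cells, below the median probe set of 8.01. POSTN is also on the fibroblast marker list, whose summed signal was 2789 to 3044 in siSOX2 and 3749 to 4094 in control NTera-2 arrays. The median of that list was 6.73 in siSOX2 and 6.71 in control NTera-2 cells. The part of the summed signal in the POSTN change was not tested. The difference in response (2102Ep minus NTera-2) was called above 0 for 9 of the 37 and below 0 for 0. The shares over all probe sets were 0.96% and 0.668%. Among the 9, POSTN stood at 0.14 in 2102Ep cells, so its difference of 1.84 came from the lower NTera-2 value, and CDH2 was also below its control in NTera-2 cells.

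Among 26 other transcription factors of EMT, 6 were called higher in siSOX2 2102Ep cells and 0 lower. The Wnt effector LEF1 (3.70), the streak factor TBXT (2.98), and TBX3 (2.50) and MSX2 (2.27) led, and EOMES (2.06) and GATA6 (1.28) also passed, with a median of 0.28. In NTera-2 cells EOMES (2.04) and LEF1 (1.53) were called, with a median of 0.13. Of 15 relatives of the factors, the Scratch zinc fingers and bHLH genes near the TWIST family, 2 were called in 2102Ep cells, MSGN1 (4.28), a bHLH factor of presomitic mesoderm, and HAND1 (4.03), a bHLH factor of heart and extraembryonic mesoderm. HAND1 (1.76) was called in NTera-2 cells. The medians of these relatives were -0.07 in 2102Ep and 0.01 in NTera-2 cells.

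TWIST proteins act as dimers, and the proteins that set those dimers include the E proteins and the ID inhibitors, which hold E proteins off DNA. Of 7 such genes 3 were called higher in siSOX2 2102Ep cells (median 0.67) and 0 in NTera-2 cells (median 0.14). They were the inhibitors ID2 (1.83), ID1 (1.18) and ID3 (1.03), while the E protein gene TCF4 stood at 0.67 (limma adjusted p = 0.00364) and TCF3 at 0.03. Of 39 ligands, receptors and SMADs that can induce the factors, 5 were called higher and 0 lower in 2102Ep cells. They were the ligands WNT5A (3.14), BMP2 (2.92), TGFB1 (2.00) and BMP4 (1.16) and the co-receptor TGFBR3 (1.04). BMP2 (1.17) was the only call in NTera-2 cells. The medians were 0.22 in 2102Ep and 0.11 in NTera-2 cells.

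Of 27 co-repressors and chromatin partners, among them HDAC, CTBP and Polycomb genes, 0 were called with siSOX2 in either line by limma, with 3 past the adjusted threshold in 2102Ep and 1 in NTera-2 cells (medians 0.05 and 0.105). Of 28 kinases, phosphatases, ubiquitin ligases and deubiquitinases known to act on SNAI1, SNAI2 or the other factors, 1 was called higher in 2102Ep cells, the kinase PRKD1 (1.40), and 1 lower, the phosphatase CTDSPL (-1.07). In 2102Ep cells 5 passed the adjusted threshold (median 0.10), and in NTera-2 cells 1 passed it and 0 were called (median 0.14). SNAI3-AS1, the single antisense neighbour measured, did not pass (-0.10 in 2102Ep and -0.02 in NTera-2 cells, limma adjusted p of 0.803 and 0.989).

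**Figure D5:**
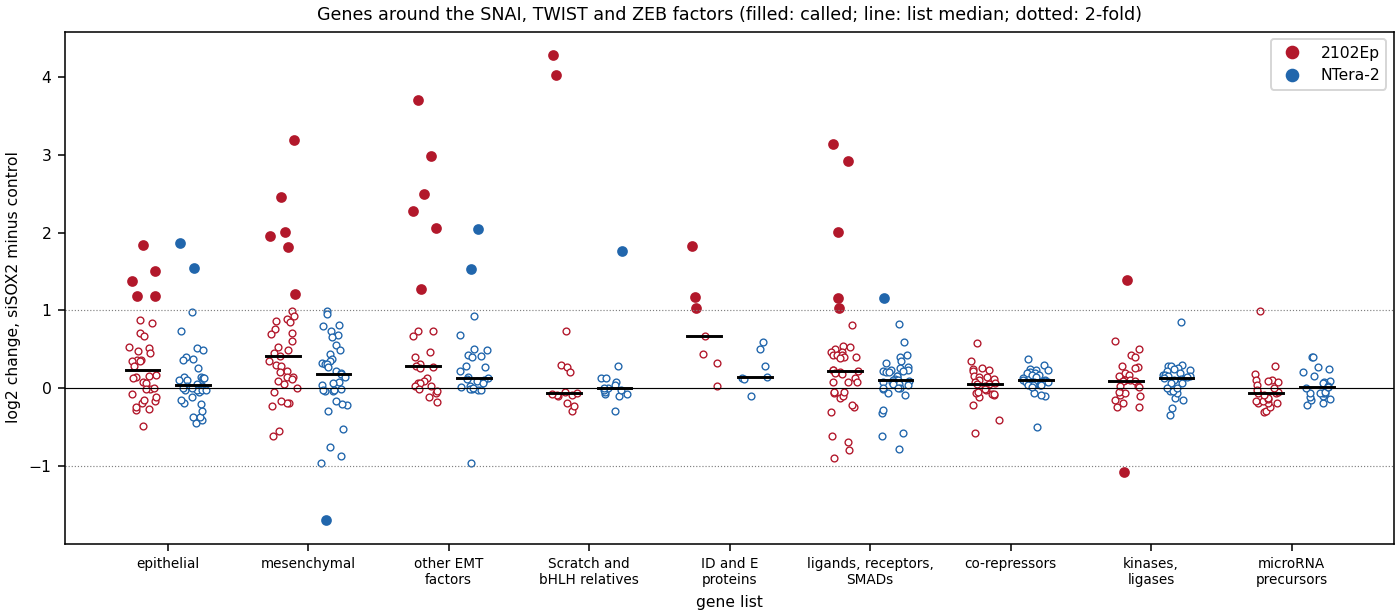
Log2 change (vertical axis, siSOX2 minus control) of each measured gene of 9 lists around the SNAI, TWIST and ZEB factors (horizontal axis) in 2102Ep cells (left strip of each pair) and NTera-2 cells (right strip); filled points are called, black lines are list medians and dotted lines mark a 2-fold change. The filled points are mostly of 2102Ep cells and mostly above 0, with up to 4.28 for MSGN1, and the co-repressor and microRNA strips hold none.

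Genes whose pattern over the 12 arrays was most like that of a factor were ranked by Pearson correlation. The ranking covered 2575 genes, each by its closest probe set among those whose group means spanned at least 1 log2 unit. The arrays share line and siRNA, so high values are common and carry no p. For SNAI1 the 5 closest genes were the prostaglandin transporter SLCO2A1 (r = 0.986), the Wnt ligand WNT8A (0.975), the factor GATA2 (0.974), the BMP-binding protein BMPER (0.974) and the homeobox factor MSX2 (0.973). For SNAI2 they were the Wnt carrier WLS (0.977), protogenin PRTG (0.971), the cytokine receptor CNTFR (0.963), the Mediator subunit MED12 (0.958) and MCC (0.955). SNAI2 had the fewest close neighbours, 31 genes above 0.9, against 99 for SNAI1.

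For ZEB1 the closest were TUSC3 (0.989), FSD1L (0.986), PGAP1, ALKBH3 and STXBP5L (0.985 each), among 834 above 0.9. For ZEB2 probe set 8055624 they were carboxypeptidase E (CPE, 0.996), the histone variant MACROH2A2 (0.995), the kainate receptor GRIK3 (0.992), TIPARP and the neuropilin NRP2 (0.989 each), among 532. Probe set 8055639 had others, the DNA sensor AIM2 (0.965), CORO2B (0.947), LRRC4B, ENOX1 (0.946 each) and PKDCC (0.945). By Spearman rank correlation 1 of the 5 genes stayed among the 5 closest for SNAI1, SNAI2, ZEB1 and ZEB2 probe set 8055639, and 2, which tied, for ZEB2 probe set 8055624. Among the factors themselves, ZEB1 and ZEB2 probe set 8055624 had an r of 0.93, both ZEB2 probe sets 0.86, SNAI1 and TWIST1 0.83, and SNAI1 and SNAI2 0.47 over the 12 arrays.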

How the data were processed

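Labelled cDNA prepared from RNA of 12 samples was hybridised to the Affymetrix Human Gene 1.0 ST array. The authors deposited 1 log2 signal for each probe set and array, obtained by robust multi-array averaging according to the study's methods. The version of the software that averaged the probes and the log base of its output are not given in the sources used here, and log2 was taken from the range of the values (1.57 to 14.98). The submitters' processing notes name limma. Arrays give no molecule counts, so the number of arrays limits the precision.

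Of 32321 probe sets, 19158 were annotated to 1 gene, 1388 to several and 11775 to none; 19128 were matched to a current RefSeq symbol and 30 kept the symbol of the array. These 19158 were fitted together over all 12 arrays with lmFit, contrasts and eBayes (limma 3.58.1, R 4.3.3, with the data.table package, version 1.17.8), a mean per group, and Benjamini-Hochberg adjustment over all 19158 within each of 5 contrasts. Plots were drawn with matplotlib 3.10.9 under Python 3.11.15. An exact two-sided permutation of 3 against 3 arrays cannot go below p = 0.1. The labels call the samples biological replicates but do not say that they came from separate cultures, so the p-values measure the spread between these arrays, which may be technical. The procedure was tested on simulated data.

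Named were all members, SOX2, CDH1 and CDH2, up to 4 called genes per list and knock-down contrast with the largest change, and the 5 genes most like each member whose group means spanned at least 1 log2 unit. The fifth and sixth calls of a list, TCF3, TCF4, MIR9-1 and the miR-200 precursors were named after their values were seen. List genes with several probe sets used the one with the highest mean. Members and lists were chosen with earlier results of these data known. Alternatives covered the probe sets fitted, the scaling, the spread, the fold threshold, a replicate block and leaving out each array.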

Additional observations from a re-analysis of the deposited data

Results flagged for a closer look

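The change with siSOX2 differed between the lines for 3 of the 8 probe sets and for both cadherins, by limma's test of the difference of the responses (2102Ep minus NTera-2, n = 3 arrays in each of 4 groups; adjusted p of at most 0.05, with no fold required). Over all 19158 probe sets 934 passed in the same way, and with the 2-fold bound 2 of the 8 were called. The difference was 1.30 for SNAI1, 1.15 for SNAI2 and 0.68 for ZEB2 probe set 8055624, and it was -0.83 for CDH1 and 1.97 for CDH2. By array signal, SOX2 RNA was left at 11.4% of control in 2102Ep and at 64% in NTera-2 cells, and the part of this in these differences was not tested. The study's Western blot detected no SOX2 protein in siSOX2 cells of either line. Groups of 3 arrays are too small for a check of single arrays that stand apart.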

How the results depend on the processing

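Of the fitted changes of the 8 probe sets, 781 values under other settings kept their direction and side of the call, 13 became calls, 1 lost its call and 17 turned sign. The lost call was SNAI2's difference in response without NTera-2 control replicate 2, which takes the called members to 1 of 8 (1 to 2 over all arrays left out). None that turned sign was past the threshold. Without single arrays the 2102Ep change of SNAI3 lay between -0.166 and 0.0608, that of TWIST2 between -0.223 and 0.0024 and that of ZEB2 probe set 8055639 between -0.0366 and 0.107. The NTera-2 change of ZEB1 lay between -0.159 and 0.192, and was -0.046 under median centring and -0.0483 under repeated quantile normalization. The difference in response of TWIST2 lay between -0.136 and 0.0889, and was 0.0254 and 0.0144 under these scalings. The line difference of SNAI3 among siSOX2 cells lay between -0.0221 and 0.205.

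Counts over all probe sets moved with the filter and the fold threshold. Without probe sets below the median signal, 122 were called higher and 97 lower in 2102Ep cells (all: 220 and 157), 31 and 37 in NTera-2 cells (57 and 67), 100 and 67 for the difference in response (184 and 128), 332 and 566 between control lines (626 and 851) and 299 and 557 between siSOX2 lines (582 and 888). The ZEB probe sets are then absent, leaving 1 and 0 members called lower between the lines. With no fold threshold the counts were 1225 and 1084, 534 and 366, 459 and 475, 4000 and 3941, and 3472 and 4388. Members called higher were then 4 in NTera-2 cells, 1 between control lines and 2 between siSOX2 lines, and 4 were called lower between siSOX2 lines.

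Replicate numbers gave no clear pairing over all groups. Same-numbered deviations correlated at -0.36 to 0.26 with 7 of 18 above 0.1, and unlike-numbered ones at -0.41 to 0.44 with 18 of 36. Between siSOX2 and control arrays the same-numbered values were 0.06, 0.18 and 0.11 in 2102Ep cells. They were -0.22, -0.18 and 0.12 in NTera-2 cells, and a pairing within 2102Ep was not settled by this. A fit with the replicate number as a block called 220 probe sets higher in 2102Ep and 58 in NTera-2 cells, with 3 and 1 members. It changed no member's call.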
